A study of Mus musculus with 2 samples.

Results

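The UMIs of 47 cell cycle genes were followed through the cell classes of the embryonic day 14 (E14) mouse brain, with the adult mouse hippocampus as a contrast. The genes were chosen by symbol and not by a measured value, but with earlier results of these data known. Of them, 19 work in S phase, when DNA is copied, and 28 in G2 and mitosis (G2/M), when chromosomes condense and separate. All 47 have a row among the 32285 genes of the count tables. Both tissues were profiled by Slide-tags, in which nuclei of a frozen section take up position barcodes from a bead array and are then sequenced by droplet single-nucleus RNA-seq. The E14 library came from a sagittal brain section of a C57BL/6J mouse embryo, and the adult library from a coronal section of hippocampus of a male C57BL/6J mouse at 56 days of age. Neither animal carried a label of treatment or altered genotype, and C57BL/6J is an inbred laboratory strain. With 1 library per tissue there is no replicate and no test was made. Intervals given are exact 95% intervals that cover counting error only.

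The E14 library held 58923882 UMIs, each the trace of 1 captured RNA molecule, in 9036 nuclei with a median of 4204 UMIs. The adult library held 15346746 UMIs in 1609 nuclei with a median of 6607 UMIs. The 2 libraries shared 1 barcode. Tissue, age, library and Cell Ranger version differed together, so these cannot be told apart.

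Cells that divide load the Mcm helicase onto origins in G1, copy their DNA in S phase, and then express the cyclins, kinases, kinesins and kinetochore proteins of mitosis. In the embryonic forebrain, radial glia divide at the ventricle and give rise to neurons, either directly or through intermediate progenitors, which divide again before their daughters leave the cycle. E2F factors are known to act on many S phase genes, while the cell cycle homology region (CHR) and CCAAT boxes are known elements of many G2/M promoters.

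Promoters show how the lists differ in sequence. RefSeq promoters on GRCm38.p6, from 250 bases before to 50 after the start, were found for 16 of the 19 S genes (17 promoters) and for 23 of the 28 G2/M genes (24 promoters). An E2F motif, TTCCCGC or TTGGCGC on either strand, was present in 58.8% of the S promoters, 25.0% of the G2/M promoters and 6.81% of all 32851 promoters. The CHR motif TTTGAA on either strand was present in 17.6% of the S promoters, 70.8% of the G2/M promoters and 17.9% of all. CCAAT on either strand was present in 76.5%, 66.7% and 37.4%. The reverse complement of TTGGCGC can share bases with CCAAT. CHR and CCAAT stood together in 54.2% of the G2/M promoters and in 6.95% of all. These matches are a description of letters and not of bound sites.
The 200 bases before the start are shown for 3 S promoters with the most matches among those with an E2F motif there, with matches of any of the motifs in capitals:
Mcm5 (chr8:75109309-75109508, plus strand): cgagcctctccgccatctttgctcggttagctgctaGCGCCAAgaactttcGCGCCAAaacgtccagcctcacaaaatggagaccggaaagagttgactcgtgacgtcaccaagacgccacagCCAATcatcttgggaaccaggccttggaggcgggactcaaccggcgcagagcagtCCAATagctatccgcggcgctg
Mcm6 (chr1:128359706-128359905, minus strand): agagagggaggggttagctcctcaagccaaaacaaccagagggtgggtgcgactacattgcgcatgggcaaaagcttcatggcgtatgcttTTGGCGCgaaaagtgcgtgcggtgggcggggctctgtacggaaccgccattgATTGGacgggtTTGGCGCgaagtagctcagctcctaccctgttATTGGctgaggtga
Pola1 (chrX:93632156-93632355, minus strand): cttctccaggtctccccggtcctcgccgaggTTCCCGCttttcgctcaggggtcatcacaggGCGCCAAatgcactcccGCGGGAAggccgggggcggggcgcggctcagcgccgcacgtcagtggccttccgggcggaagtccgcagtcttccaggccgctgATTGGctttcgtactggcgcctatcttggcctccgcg
The same stretch is shown for 3 G2/M promoters with the most matches among those with a CHR motif, with capitals as before:
Top2a (chr11:99024190-99024389, minus strand): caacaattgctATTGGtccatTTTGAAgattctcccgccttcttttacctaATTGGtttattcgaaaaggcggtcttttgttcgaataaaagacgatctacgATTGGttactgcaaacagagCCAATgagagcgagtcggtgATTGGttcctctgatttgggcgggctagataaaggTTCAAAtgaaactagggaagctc
Mki67 (chr7:135716380-135716579, minus strand): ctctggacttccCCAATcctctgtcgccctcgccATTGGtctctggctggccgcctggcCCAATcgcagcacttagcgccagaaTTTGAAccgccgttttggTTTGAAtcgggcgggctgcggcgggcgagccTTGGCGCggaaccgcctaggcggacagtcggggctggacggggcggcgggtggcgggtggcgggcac
Ccnb2 (chr9:70421555-70421754, minus strand): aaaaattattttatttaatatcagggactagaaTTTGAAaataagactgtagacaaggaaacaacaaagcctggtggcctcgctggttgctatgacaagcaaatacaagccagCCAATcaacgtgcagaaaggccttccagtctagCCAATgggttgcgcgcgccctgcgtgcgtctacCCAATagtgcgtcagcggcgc
Mcm5, Mcm6 and Pola1 had 2, 2 and 3 E2F matches in this stretch and no CHR match. Top2a and Mki67 had 2 CHR matches each and Ccnb2 had 1, beside 5, 3 and 3 CCAAT matches.

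Cell classes were set by marker genes that are not among the 47. A nucleus joined the class whose list it exceeded most, if it held at least 3 UMIs from at least 2 of the list's markers. Of the 9036 E14 nuclei, 590 were radial glia-like, with Slc1a3 in 77.8%, Notch1 in 61.4% and Sox9 in 21.5% of them. Another 193 were intermediate progenitor-like, with Eomes in 79.3% but Neurog1 in 5.70%. The neuron classes were forebrain GABAergic neuron-like (1485 nuclei, Gad2 in 92.3%), cortical excitatory neuron-like (393, Neurod6 in 61.3%), diencephalic or midbrain glutamatergic neuron-like (648, Tcf7l2 in 95.4%) and hypothalamic neuron-like (403, Sim1 in 93.8%). The GABAergic nuclei held Dlx6os1 in 87.7%, but Sp9 in 24.5% and Dlx5 in 15.9%. The cortical excitatory nuclei held Mef2c in 79.6%, but Tbr1 in 26.7%, Fezf2 in 25.7% and Sla in 5.85%. The diencephalic or midbrain nuclei held Slc17a6 in 81.5% and Lhx9 in 51.5%, but Gbx2 in 11.1%, Barhl2 in 1.70% and Pou4f1 in 0.463%. The hypothalamic nuclei held Otp in 88.8% and Fezf1 in 29.5%, but Pomc in 5.21%, Hmx2 in 3.97% and Nr5a1 in 2.23%. They are thus mostly Sim1 and Otp neurons, not hypothalamic neurons at large. The 803 nuclei of the Cajal-Retzius list held Reln in 77.2% and Lhx1 in 62.9% but Trp73, which defines Cajal-Retzius cells, in 24.7%, and are called Reln and Lhx1 neurons here. The 23 nuclei of the ventral progenitor list were too few to describe further. A class of 35 nuclei from the erythroid list held Hemgn in 0% and was left unnamed. The 3711 unassigned nuclei were shallower, with a median of 2787 UMIs. Diencephalic and hypothalamic neuron-like nuclei together (1051) served as reference neurons, a choice made after their low levels had been seen.

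Radial glia-like nuclei held the highest G2/M level among the classes shown, and the highest S level together with mural-like nuclei. Summed over the class, the S genes reached 813 CPM (UMIs of the genes per 1000000 UMIs of the class, interval 788 to 839) and the G2/M genes 2404 (2361 to 2448). Reference neurons held 205 (196 to 215) and 324 (313 to 336). Intermediate progenitor-like nuclei lay between, at 416 (390 to 443) for S and 1150 (1107 to 1195) for G2/M.

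Classes other than neurons and progenitors also carried the lists. Of their markers, the most and the least widely held are given. Mural-like nuclei held Notch3 in 81.1% and Acta2 in 3.77%, and mesenchyme-like nuclei Col3a1 in 95.6% and Twist1 in 4.39%. Endothelial-like nuclei held Egfl7 in 91.5% and Esam in 67.3%. Microglia or macrophage-like nuclei held Csf1r in 81.7% and Tyrobp in 38.7%, and choroid plexus-like nuclei Htr2c in 87.3% and Wfikkn2 in 38.8%. G2/M levels were 2017 CPM (1889 to 2151) in 53 mural-like nuclei, the pericytes and muscle cells of vessel walls, and 1745 (1690 to 1802) in 153 endothelial-like nuclei. Microglia or macrophage-like nuclei held 1366 (1290 to 1447), choroid plexus-like nuclei 1203 (1157 to 1250) and mesenchyme-like nuclei 967 (928 to 1007). The intervals of choroid plexus-like and intermediate progenitor-like nuclei overlapped. So did the S intervals of radial glia-like nuclei and mural-like nuclei (789, 709.5 to 875), and their S order turned without nuclei of high doublet score (902 against 973) and with at least 6 marker UMIs (787 against 893).

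**Figure D1:**
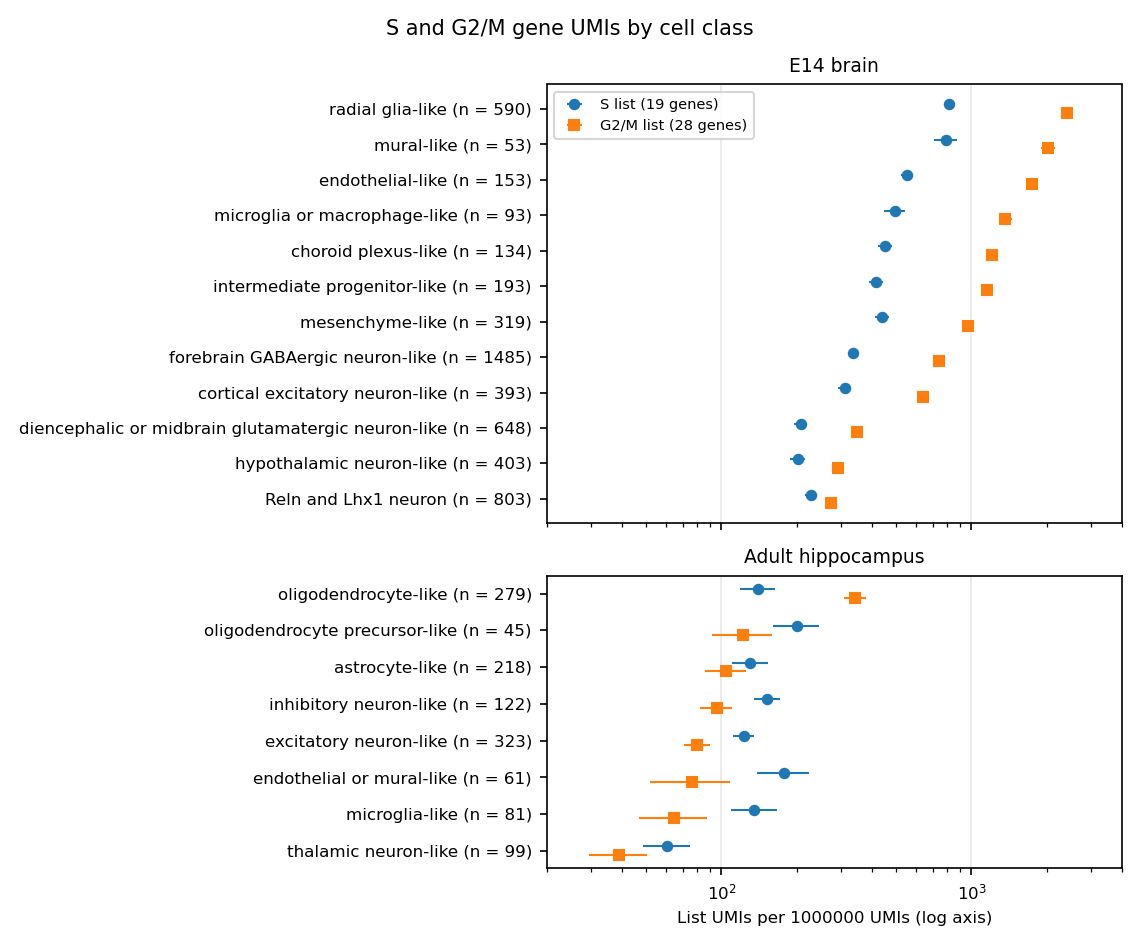
Summed CPM of the 19 S genes (circles) and the 28 G2/M genes (squares) in each class, on a log axis, with exact Poisson 95% intervals. In the E14 brain G2/M levels ran from 275 in Reln and Lhx1 neurons to 2404 in radial glia-like nuclei, and in adult classes they lay below the S level except in oligodendrocyte-like nuclei.

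Among E14 neurons the levels were unequal. Forebrain GABAergic neuron-like nuclei held 742 G2/M CPM (725 to 758) and cortical excitatory neuron-like nuclei 641 (615 to 667). Diencephalic or midbrain neuron-like nuclei held 350 (333 to 366), hypothalamic neuron-like nuclei 294 (278 to 311) and Reln and Lhx1 neurons 275 (261 to 288), and the last 2 intervals overlapped. Pan-neuronal check genes stood at 2930 CPM in radial glia-like, 4585 in intermediate progenitor-like and 7215 in reference nuclei. They also stood at 4671 in microglia or macrophage-like nuclei. Pan-progenitor check genes stood at 5472 in radial glia-like, 7152 in intermediate progenitor-like, 4490.5 in cortical excitatory and 1295 in reference nuclei. Neither set was confined to the cells it is named for. When classes came from clusters found without cell cycle genes, G2/M levels were 3340 in radial glia-like, 423 in GABAergic, 240 in cortical excitatory and 133 in diencephalic clusters, so these 3 neuron levels were lower by more than 1.5 times. Reln and Lhx1 neurons were higher with clusters, at 323. Many clusters stayed unassigned, among them the largest, of 1287 nuclei. No cluster was named intermediate progenitor, mural or hypothalamic, so those classes have no cluster value. The diencephalic value came from a cluster of 576 nuclei.

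The share of nuclei with a UMI was also highest in radial glia-like nuclei at equal depth, while the order of other classes differed in part from that of the CPM. After each nucleus was thinned to 1000 UMIs, 65.4% of 561 radial glia-like nuclei held a G2/M UMI (61.3% to 69.4%), against 16.5% of 1036 reference neurons (14.3% to 18.9%). The share was 41.5% (34.4% to 48.7%) in intermediate progenitor-like, 48.6% (40.4% to 57.0%) in endothelial-like, 52.3% (43.4% to 61.0%) in choroid plexus-like, 58.8% (44.2% to 72.4%) in mural-like and 38.7% (28.8% to 49.4%) in microglia or macrophage-like nuclei. It was 26.8% (22.5% to 31.5%) in cortical excitatory and 21.2% (19.1% to 23.4%) in GABAergic nuclei, and these intervals overlapped. For S genes it was 51.9% in radial glia-like and 16.1% in reference nuclei. Thinning left out 29 radial glia-like and 15 reference nuclei. Without thinning, 83.6% of radial glia-like nuclei (median 4628 UMIs) and 50.4% of reference neurons (median 6112 UMIs) held a G2/M UMI. The share in reference neurons is the level set beside the other classes, and no background share was measured.

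G2/M UMIs were spread unevenly over nuclei. At 2000 UMIs per nucleus, 40.0% of 505 radial glia-like nuclei (35.7% to 44.4%) held 5 or more G2/M UMIs, with a median of 3 and a maximum of 30. The share with 5 or more was 14.6% of intermediate progenitor-like nuclei (9.84% to 20.5%), 22.6% of endothelial-like (15.9% to 30.6%), 7.36% of GABAergic (5.99% to 8.93%) and 1.90% of reference nuclei (1.15% to 2.95%). In 45 mural-like nuclei it was 31.1% (18.2% to 46.6%), an interval that overlaps that of radial glia-like nuclei. The median was 0 in GABAergic and cortical excitatory nuclei. At full depth, 204 radial glia-like nuclei held UMIs of 10 or more different G2/M genes (34.6%), as did 47 intermediate progenitor-like (24.4%), 54 endothelial-like (35.3%) and 41 reference nuclei (3.90%). So did 21 mural-like (39.6%) and 40 choroid plexus-like nuclei (29.9%), so this trait was not highest in radial glia-like nuclei. The nuclei with 10 or more genes were deeper than their classes. In radial glia-like, intermediate progenitor-like, endothelial-like and reference nuclei the medians were 8656, 13196, 19576 and 16015 UMIs against 4628, 7891, 9049 and 6112. In mural-like and choroid plexus-like nuclei they were 10935 and 25109.5 against 5944 and 9131.5.

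Radial glia marker UMIs moved with the G2/M level inside the neuron classes. In the 865 GABAergic nuclei with no UMI of the radial glia list, G2/M genes stood at 238 CPM (223 to 254), and in the 298 with 2 or more at 1313 (1279 to 1349). In cortical excitatory nuclei the values were 188 (162 to 217) in 176 nuclei and 993 (949 to 1037) in 131. The S level moved less, from 231 to 454 in GABAergic and from 202 to 397 in cortical excitatory nuclei. Median depth also moved, from 3801 to 8578 UMIs in GABAergic and from 4678 to 10038 in cortical excitatory nuclei. Between the 262 shallowest and the 262 deepest reference neurons, UMIs per nucleus grew 7.08-fold and G2/M UMIs 19.5-fold. The part of nuclei captured together, free RNA or dividing cells in these values was not tested. Without the 653 nuclei of highest doublet score the G2/M level was 257 CPM in reference neurons and 2711 in radial glia-like nuclei.

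**Figure D2:**
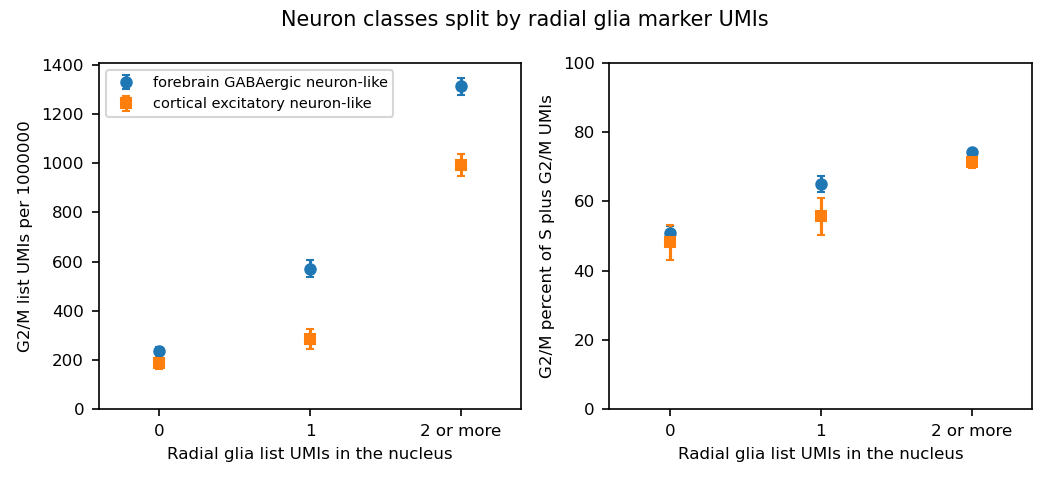
G2/M CPM (left) and G2/M UMIs as a percent of S plus G2/M UMIs (right) in GABAergic (circles) and cortical excitatory (squares) neuron-like nuclei with 0, 1, or 2 or more radial glia list UMIs, with exact 95% intervals. Both measures were higher with more radial glia list UMIs, from 238 to 1313 and from 188 to 993 CPM.

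Within radial glia-like nuclei, the 217 with more UMIs of dorsal (cortical) than ventral genes held 2164 G2/M CPM (2107 to 2223). The 93 with more ventral UMIs held 2790 (2687 to 2895), and the intervals did not overlap. The 269 with no UMI of either set held 2516 (2429 to 2606) and could not be placed. These intervals do not measure the spread between nuclei. S levels were 799 (764 to 835) in the dorsal and 868 (811 to 928) in the ventral nuclei.

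Gene by gene, 40 of the 47 genes were at least 4-fold higher in radial glia-like nuclei than in reference neurons, 14 of 19 S and 26 of 28 G2/M genes. Over all 15955 genes with at least 20 UMIs in these groups together, 5.96% passed the same limit, and all 47 had that many UMIs. The median fold was 5.77 for S genes, 7.77 for G2/M genes and 1.13 over all genes tested. The interval lay above 1 for 46 genes, Gins2 being the exception. The reference neurons were chosen after their low levels had been seen, so these folds depend on that choice. In GABAergic nuclei, Top2a stood at 31.9% and Mki67 at 32.2% of the radial glia-like level, contrasts under 4-fold. Mcm2 at 19.1% and Cenpf at 22.4% were beyond 4-fold there. A count over all 47 genes against GABAergic nuclei was not made.

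Among S genes, the helicase and its loaders were led by Mcm6, at 65.9 CPM in radial glia-like nuclei and 11.0 in reference neurons, a 5.96-fold difference (4.76 to 7.53). Mcm3, another helicase subunit, was 7.44-fold higher (4.84 to 11.8), Mcm5 6.21-fold (4.06 to 9.76), Mcm2 4.97-fold (3.37 to 7.47) and Mcm4 3.75-fold (2.67 to 5.33). Cdc6, which loads the helicase, was 5.55-fold higher and Cdc45, which activates it with the GINS complex, 5.91-fold. Gins2, a GINS subunit, stood at 30.6 and 24.8 CPM, a ratio of 1.23 (0.996 to 1.52). Gins2 overlaps Gse1 on the other strand, and in intermediate progenitor-like nuclei it stood at 36.9 CPM, a ratio to radial glia-like nuclei of 1.21 (0.914 to 1.58).

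The other S genes also differed in size of contrast. Rrm2, the ribonucleotide reductase subunit made in S phase, was 5.77-fold higher (4.06 to 8.35), while its partner Rrm1 was 2.21-fold higher (1.82 to 2.70) and Tyms, thymidylate synthase, 4.48-fold. Pcna, the sliding clamp, was 2.63-fold higher (2.05 to 3.37) and the polymerase gene Pola1 3.39-fold (3.08 to 3.75). Pola1 held 28.7% of the radial glia-like S UMIs and is the longest of the 47 genes, spanning 327 kb against a median of 29.9 kb. Dscc1, of the clamp loader, was 9.27-fold higher and the helicase Brip1 9.25-fold (6.58 to 13.3). Chromatin genes were higher too, Uhrf1 by 7.14-fold, Hells by 6.49-fold and the histone chaperone gene Chaf1b by 5.44-fold, as was the repressor E2f8 by 6.4-fold.

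Among G2/M genes, Top2a, the topoisomerase that untangles chromosomes, stood at 444 CPM in radial glia-like nuclei and 51.6 in reference neurons, an 8.61-fold difference (7.79 to 9.52), and held 18.5% of the G2/M UMIs. The proliferation marker Mki67 stood at 213 and 26.0 (8.20-fold, 7.12 to 9.48), and the condensin gene Smc4 at 132 and 20.5 (6.45-fold). Cdk1, the mitotic kinase, was 7.33-fold higher and its cyclins Ccnb1, Ccna2 and Ccnb2 were 9.78-fold, 5.49-fold and 3.92-fold higher.

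The spindle checkpoint and mitotic kinase genes Bub1, Bub1b, Ttk, Aurka and Aurkb were 6.25-fold to 9.48-fold higher. Kinetochore genes ran from 5.80-fold for Ndc80 to 9.43-fold for Cenpf, with Cenpe at 8.80, Nuf2 at 9.06 and Kntc1 at 8.72. The spindle genes Kif11, Kif18a, Kif20b, Kif23, Kif2c and Tpx2 were 6.04-fold to 7.86-fold higher. Nusap1, a microtubule binding protein of the spindle, was 3.72-fold higher (3.23 to 4.28), and it overlaps Oip5 on the other strand. The cytokinesis genes Anln and Ect2 were 7.77-fold and 9.73-fold higher, and Depdc1b and the DNA glycosylase gene Neil3 9.33-fold and 7.61-fold. Of the 47 genes, 21 overlap another annotated gene, 11 of them on the same strand, and their counts are uncertain to that extent.

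**Figure D3:**
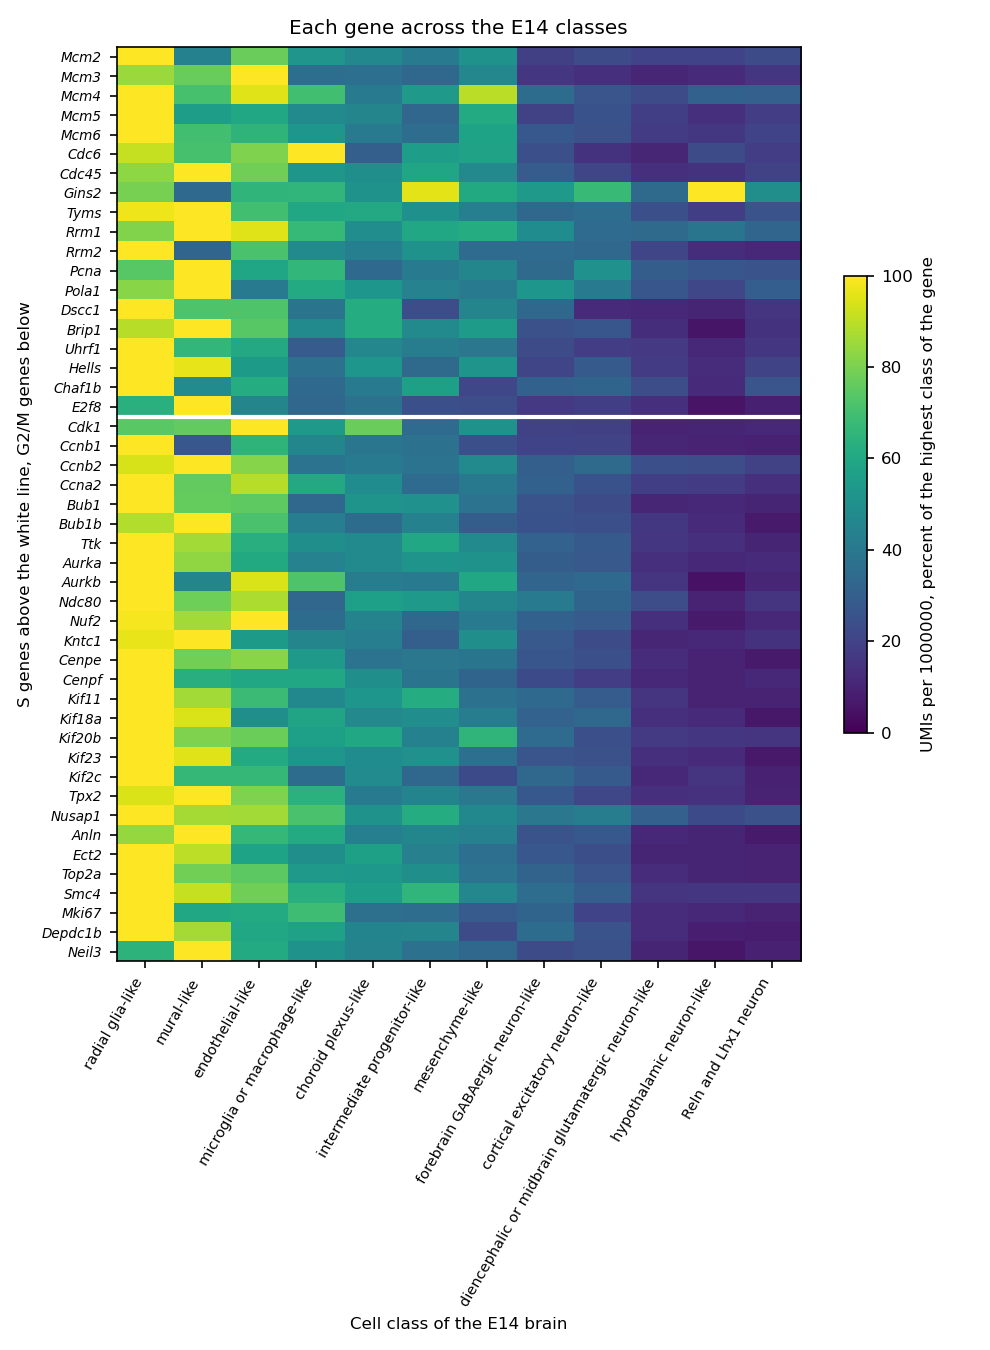
Each gene's CPM in 12 E14 classes as a percent of its highest class, with S genes above the white line and G2/M genes below it. Radial glia-like nuclei were the highest class for 29 genes and mural-like nuclei for 13, and the 5 columns on the right are neurons.

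Intermediate progenitor-like nuclei carried both lists at a lower level. Of the 47 genes, 46 were lower than in radial glia-like nuclei, 44 with the interval of the ratio below 1. The share of all genes that were lower was not computed. Top2a stood at 221 CPM against 444, a ratio of 0.497 (0.450 to 0.547), and Mki67 at 75.9 against 213, a ratio of 0.356 (0.302 to 0.418). Smc4 had a ratio of 0.659 (0.560 to 0.773) and Hells of 0.344 (0.273 to 0.429). Against reference neurons, 12 of the 47 genes were at least 4-fold higher in intermediate progenitor-like nuclei, 2 S and 10 G2/M genes, where 1.69% of 15159 genes passed that limit and 46 of the 47 had enough UMIs.

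The division between the lists was close among the classes with high levels. G2/M genes held 74.7% of the S plus G2/M UMIs in radial glia-like nuclei (74.0% to 75.4%), 73.4% in intermediate progenitor-like (72.0% to 74.9%), 76.0% in endothelial-like (74.7% to 77.2%), 73.5% in microglia or macrophage-like (71.3% to 75.6%) and 72.7% in choroid plexus-like nuclei (71.3% to 74.2%). Mural-like nuclei stood at 71.9% (69.3% to 74.3%). Mesenchyme-like nuclei were lower, at 68.8% (67.2% to 70.3%). Forebrain GABAergic neuron-like nuclei stood at the same 68.8% (67.9% to 69.6%) and cortical excitatory nuclei at 67.3% (65.7% to 68.8%). The other neuron classes were lower, at 62.7% (60.9% to 64.5%) in diencephalic or midbrain, 59.3% (57.1% to 61.4%) in hypothalamic and 54.6% in Reln and Lhx1 nuclei (52.8% to 56.4%). UMIs are not scaled to gene length and longer genes give more intronic UMIs, so the percent has meaning between classes only, not as a share of time in a phase.

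S and G2/M UMIs were found together in part of the nuclei. At 1000 UMIs per nucleus, 38.9% of radial glia-like nuclei held UMIs of both lists, 26.6% of G2/M only, 13.0% of S only and 21.6% of neither. In all, 51.9% of radial glia-like nuclei held an S UMI and 65.4% a G2/M UMI. In reference neurons 3.28% held both, where 16.1% held an S UMI and 16.5% a G2/M UMI. Whether both lists met in a nucleus more often than these single shares give was not tested. Across 505 radial glia-like nuclei at 2000 UMIs, S and G2/M UMIs had a Pearson r of 0.13 and a Spearman rho of 0.27, a description of nuclei that share 1 library and their base composition. The Pearson r was 0.40 in GABAergic and 0.17 in reference nuclei.

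To see how single genes divide, radial glia-like nuclei thinned to 2000 UMIs were placed in a G2/M-high group (5 or more G2/M UMIs, 202 nuclei), an S-high group (2 or more S and at most 1 G2/M UMI, 59) and a low group (no S and at most 1 G2/M UMI, 79). The remaining 165 were in none. Median depths were 5366, 4148 and 5200 UMIs in the 3 groups. These limits were set after the distributions had been seen. Each gene was left out of the sums when its own nuclei were placed, and its level was then taken from all UMIs.

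All 28 G2/M genes were higher in the G2/M-high than in the S-high group, each with an interval above 1, by a median of 5.59-fold. The groups were set by the other G2/M genes, so genes that vary together are higher in the first group by its making. The share over all genes between these groups was not computed, so the count is a description of the groups only. Cenpe was 12.0-fold higher (5.78 to 30.1), at 224 against 18.6 CPM, and Top2a 4.70-fold (3.73 to 6.01), at 857 against 182. The smallest contrasts were in Kntc1 (2.43-fold, 1.5 to 4.19), Cdk1 (2.68-fold, 1.37 to 6.01) and Smc4 (2.78-fold, 1.92 to 4.14).

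For 16 of 19 S genes the interval held 1, and the median ratio was 1.05. The groups are not symmetric, since the S-high group has a limit on G2/M UMIs while the G2/M-high group has none on S UMIs, with means of 3.17 and 2.44 S UMIs, so a wider contrast in G2/M than in S genes is built into them. Mcm6 was lower in the G2/M-high group, at 67.8 against 109 CPM (ratio 0.622, 0.430 to 0.918). Hells had a ratio of 0.808 (0.606 to 1.09) and Pola1 of 1.05 (0.823 to 1.36). Brip1 was higher in the G2/M-high group, at 79.0 against 22.0 (3.59-fold, 1.78 to 8.47). E2f8 had 38 UMIs there and 0 in the S-high group. With the 0 set to the floor of 3 counts its ratio was 2.50, and the interval of the ratio began at 1.94. Against the low group, the S genes were higher by a median of 3.39-fold in the S-high and 3.32-fold in the G2/M-high group, with counts of 0 set to 3.

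**Figure D4:**
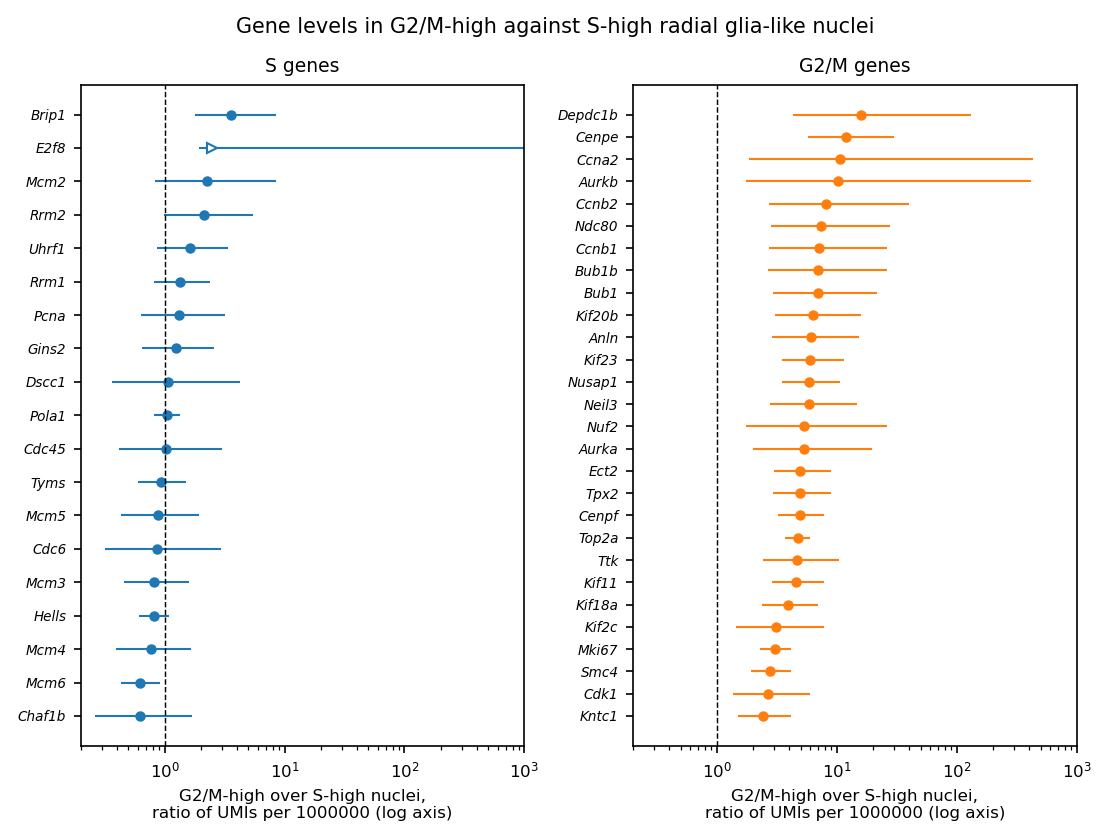
Ratio of CPM in G2/M-high over S-high radial glia-like nuclei for each S gene (left) and G2/M gene (right), on a log axis, with exact conditional 95% intervals and a dashed line at 1. All 28 G2/M intervals lie above 1, 16 of the 19 S intervals hold 1, and the open triangle for E2f8 marks a lower bound from 0 UMIs in the S-high group. The groups were set by the UMIs of the other genes of these lists, and no share over all genes was computed.

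Many further cell cycle genes were also higher in radial glia-like nuclei, with exceptions such as Usp1. Of 24 further S phase genes, 11 were at least 4-fold higher in radial glia-like nuclei than in reference neurons, with a median of 3.61-fold, and of 24 further G2/M genes 21 were, with a median of 6.22-fold. The most abundant of the first list were Atad2 (144 against 17.4 CPM), Wdr76 (104 against 54.9) and Usp1 (82.7 against 82.5). Those of the second were Hmgb2 (112 against 18.8), Kif4 (101 against 14.1) and Hmmr (67.5 against 4.98).

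Of 19 regulators of G1 entry and exit, 7 were at least 4-fold higher in radial glia-like nuclei. Ccnd2, a cyclin of G1, stood at 318 against 47.4 CPM (6.71-fold, 6.03 to 7.47) and its kinase partner Cdk6 at 121 against 11.7 (10.4-fold). E2f3 stood at 209 against 52.9. Ccnd1 had a ratio of 1.44 (1.20 to 1.72) and Ccnd3 of 2.63. Among inhibitors, Cdkn2c stood at 6.36 against 0.758, Cdkn1b at 24.4 against 14.7, Cdkn1c at 48.8 against 42.5 (ratio 1.15, 0.973 to 1.35), Cdkn1a at 1.64 against 1.52, and Cdkn2d at 4.72 against 6.71 (0.416 to 1.15). Of the pocket protein genes, whose products restrain E2F, Rb1 and Rbl2 had ratios of 0.912 and 0.850 and Rbl1 of 2.65 (2.24 to 3.14). Btg2, a gene of neuron-producing divisions, stood at 18.9 CPM in radial glia-like, 18.4 in intermediate progenitor-like and 3.14 in reference nuclei.

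Genes outside the lists that varied with them in radial glia-like nuclei were named by the ratio between 389 nuclei with 3 or more G2/M UMIs (median 5701 UMIs) and 97 with none (median 2833 UMIs). The 10 with the highest ratios were Kif15, Cit, Cdca2, Aspn, Kctd18, Ccnf, Ccdc18, Efcab11, Hjurp and Depdc1a. Kif15 is a mitotic kinesin and Cit a kinase of cytokinesis. Kif15 had 479 UMIs in the first group and 1 in the second, a ratio of 35.4 (6.31 to 1399), and each of the others rested on 1 or 2 UMIs in the second group.

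In the adult hippocampus both lists were low. Over all nuclei, S genes stood at 122 CPM (117 to 128) and G2/M genes at 99.8 (94.8 to 105), against 353 and 769.5 in the E14 library, ratios of 2.90 and 7.71. Of the 47 genes, 36 were at least 4-fold higher in E14, 11 S and 25 G2/M genes, where 10.5% of 20842 genes passed that limit. With the mean over nuclei of each nucleus's value in place of summed UMIs, the G2/M ratio was 4.74.

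Top2a showed the widest gap of the 47 genes, at 140 CPM in E14 and 0.977 in adult (15 UMIs), a 143-fold difference (86.7 to 256). Cenpf stood at 51.8 against 0.782 (66.3-fold), Bub1 at 15.0 against 0.391 and Rrm2 at 9.25 against 0.391. Cdk1 had 817 UMIs in E14 and 2 in adult, a ratio of 106 (29.4 to 880), and Chaf1b had 291 and 1.

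A few genes held most of the adult UMIs. The 9 genes with 100 or more adult UMIs (Mcm6, Gins2, Rrm1, Pcna, Pola1, Nusap1, Anln, Smc4 and Mki67) held 77.9% of the 3402 adult UMIs of all 47 genes, and 13 genes had fewer than 10. Pcna stood at 16.8 CPM in E14 and 16.7 in adult (ratio 1.00, 0.873 to 1.15) and Gins2 at 23.1 and 22.7 (1.02, 0.904 to 1.15). Anln was lower in E14, at 19.6 against 23.9 (ratio 0.819, 0.728 to 0.924).

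Oligodendrocyte-like nuclei held 307 of the 367 adult Anln UMIs. After thinning to 1000 UMIs, 22.5% of 258 such nuclei held an Anln UMI (17.5% to 28.1%), against 0.758% of excitatory neuron-like nuclei (0.0919% to 2.71%). Anln encodes anillin, known both from cytokinesis and from myelin. Oligodendrocyte-like nuclei had 342 G2/M CPM with Anln and 75.6 (60.6 to 93.3) without it, and 0 Top2a UMIs.

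Adult Mki67 had 406 UMIs, 123 of them in excitatory neuron-like nuclei, 90 in nuclei of the inhibitory neuron list and 0 in thalamic neuron-like nuclei. The 122 nuclei of the inhibitory list held Adarb2 in 95.9% and Gad1 in 94.3%. They held Gad2 in 30.3% and Slc32a1 in 18.0%, so their identity as inhibitory neurons is uncertain. Of the 242 adult nuclei with a Mki67 UMI, 123 (50.8%) held no UMI of any other G2/M gene. Mki67 overlaps Gm45240 on the other strand. Without Anln and Mki67 the E14 over adult ratio of the G2/M genes was 13.9, a value chosen after the adult levels had been seen.

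In the adult library, 3 nuclei held UMIs of 10 or more different G2/M genes, 0.186% of 1609 (0.0385% to 0.544%), against 8.10% of E14 nuclei (7.55% to 8.68%). The first, unassigned, held 17 of the genes in 3944 UMIs and 6 Top2a UMIs. The second was astrocyte-like with 14 genes in 10078 UMIs, and the third, unassigned, held 13 genes in 1471 UMIs. Of 45 oligodendrocyte precursor-like nuclei 0 held 10 or more, which allows up to 7.87%, and 2 held 5 or more.

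**Figure D5:**
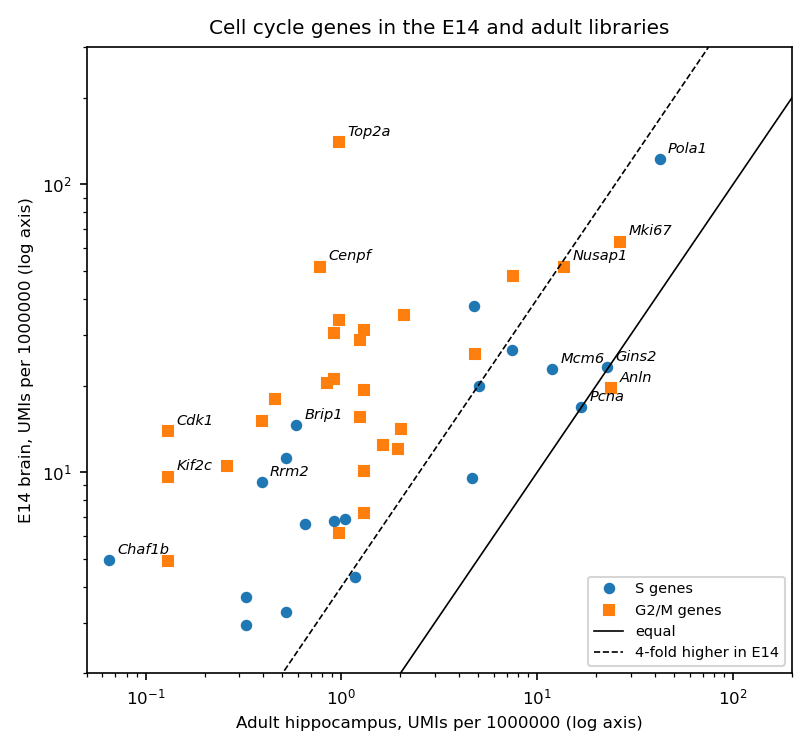
CPM of each gene in the adult hippocampus (x axis) and the E14 brain (y axis), both on log axes, with lines at equality and at 4-fold. G2/M genes (squares) such as Top2a and Cenpf lie far above the 4-fold line, while Pcna, Gins2 and Anln lie near equality.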

How the data were processed

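The authors aligned the reads to mm10 with Cell Ranger, 7.0.1 for the E14 and 6.1.2 for the adult library per the file headers, and what they deposited are raw UMI counts, not normalized. CellBender, a background removal tool, is named in the methods for the embryo, but the header of the E14 matrix is that of Cell Ranger and its counts were read as preceding that step. Spatial positions were not analysed here.

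A nucleus was used if it had 500 UMIs or more and a mitochondrial share below 5%, which left 9036 of 9037 (E14) and 1609 of 1661 (adult). A class needed 3 UMIs of 2 markers and a score above 1, the excess of the list's UMIs over the number the depth gives, divided by the square root of that number plus 1. Levels are summed UMIs per 1000000. Intervals are exact Poisson, Clopper-Pearson or, for ratios, conditional binomial (95%), and cover counting error only. A count of 0 was set to 3 in a fold. Folds were counted for genes with at least 20 UMIs over both groups. Doublets were scored with scanpy 1.11.5. Its caller marked 1 nucleus, so the 653 highest scores were left out as an alternative only. Python 3.11.15, numpy 2.4.6 and scipy 1.17.1 were used, and the functions were tested on simulated data. With 1 library per tissue no test was made.

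The 47 genes and all lists were chosen with earlier results of these data known. The limits of 3 UMIs and 2 markers, the reference neurons, the groups by S and G2/M UMIs, and the splits by radial glia list UMIs were chosen after values had been seen. Every one of the 47 genes is named by role, with the 3 most abundant genes of the further S and G2/M lists, all Ccnd and Cdkn genes and Btg2 of the G1 list, and the 10 genes with the highest ratio between nuclei with and without G2/M UMIs. Cdk6, E2f3, Rb1, Rbl1 and Rbl2 were added after their values were seen. Gene positions and overlaps are from GENCODE vM21 on GRCm38.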

Additional observations from a re-analysis of the deposited data

How the results depend on the processing

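Radial glia-like nuclei held more G2/M CPM than every E14 neuron class in all 7 alternatives that give this value. Their levels moved beyond the counting interval of 813 (S) and 2404 (G2/M) to 1146 and 3340 with clusters, 902 and 2711 without nuclei of high doublet score, 787 and 2344 with at least 6 marker UMIs, 841 and 2507 without Vim and Fabp7 in the marker list, 539 and 1615 without Top2a, Mki67, Smc4, Pola1 and Brip1, and 933 and 2582 as the mean over nuclei. The share of them with a G2/M UMI, 65.4%, moved to 72.0% with clusters, 58.5% without the 5 genes and 75.4% when thinned to 2000 UMIs. The G2/M percent of their S plus G2/M UMIs stayed within its interval in every alternative. The E14 over adult ratio moved to 2.69 (S) and 4.74 (G2/M) as the mean over nuclei, for S to 2.73 without the 5 genes, and for G2/M to 13.9 without Anln and Mki67. The count of genes at least 4-fold higher in radial glia-like nuclei was 34 with at least 100 UMIs. At that limit 4.55% of 11767 genes passed, and 41 of the 47 had enough UMIs. The count was 42 against reference neurons without radial glia list UMIs, for which no share over all genes was computed. For E14 over adult it was 36 with at least 100 UMIs, where 9.33% of 16727 genes passed. Beyond counting error, the cause of these moves was not tested, except that fewer genes could pass at 100 UMIs. The share of radial glia-like nuclei with an S UMI, 51.9%, moved to 58.5% with clusters, 40.3% without the 5 genes and 71.5% when thinned to 2000 UMIs. Of 337 values, those of the other classes and of this S share, 214 stayed within their interval, 52 were higher and 71 lower. The reference without radial glia list UMIs and the list without Anln and Mki67 were chosen after seeing the data. No paired analysis was possible because each tissue has 1 library. Genes with few UMIs, such as Chaf1b in the adult library, are limited by depth.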
